A study of Mus musculus with 9 samples.

Results

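Collagen genes were taken as every gene whose symbol reads Col, a number, the letter a and a number, with nothing before or after. The rule found 44 of the 55385 genes in the table. By the structure of the protein they were 11 fibrillar, 6 basement membrane, 6 beaded filament and 9 FACIT genes (fibril-associated collagens with interrupted triple helices), 2 multiplexins, 3 short-chain network genes, 4 transmembrane genes and 3 others. Kidneys of male C57BL/6 mice, 8 to 10 weeks old at the start, were compared in 3 groups of 3 mice with 1 library per mouse. The labels give the strain so, and the study's methods write C57BL/6J. Control mice (replicates 2, 4 and 5) had no induction and are labelled untreated. HN mice (replicates 4, 8 and 12) had hyperuricemic nephropathy, induced by adenine at 0.16 g/kg and potassium oxonate at 2.4 g/kg over 4 weeks. PEC mice (replicates 1, 2 and 3) received the same induction and pectolinarigenin, a plant flavonoid, at 25 mg/kg daily over the same 4 weeks; the dose comes from the study's methods, since the labels name the compound only. Whole kidney was used, so that every value averages over all kidney cell types. In such bulk samples fewer cells of a type and less RNA per cell cannot be told apart.

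Collagens are triple-helical proteins of the extracellular matrix. Fibrillar collagens such as types I, III and V form the fibers of connective tissue and of scars, and type IV builds the sheet of every basement membrane, with a chain set of its own in the glomerular filter. Beaded filaments of type VI and FACIT collagens sit between and on the fibrils, and excess fibrillar collagen in the interstitium is the hallmark of kidney fibrosis.

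The deposited table gives an estimated count and an FPKM (fragments scaled to exon length and library total) for each gene and library. Total counts ran from 74965874 to 78459183 in Control, from 74212324 to 81069646 in HN and from 57714111 to 74397038 in PEC. Low counts clustered at multiples of 3.98 to 4.01 in Control, 3.96 to 4.02 in HN and 3.75 to 3.77 in PEC, which puts 1 sequenced fragment at about 4 count units and depth at 15.4 to 20.3 M fragments. The PEC libraries stood apart in this step, and also in the dependence of counts on gene length and GC content. Across 21358 genes, Spearman's rho of a library's deviation with exon length was 0.0378 to 0.0634 in Control, 0.163 to 0.195 in HN and -0.264 to -0.23 in PEC (a description over genes, which are not independent replicates). With GC content rho was -0.183 to -0.0821 in Control, -0.0667 to -0.0628 in HN and 0.168 to 0.191 in PEC. These library differences coincide with the groups and cannot be told apart from the treatment. They bear on collagens because the genes are long. The 41 collagens tested had a median exon length of 7621 bases, against 3361 over all tested genes, and 40 of the 41 were longer than that. GC content differed too, with a median of 55.05% in the collagens and 49.47% over all tested genes. Removal of the length trend ended the call of Col4a1, Col6a3, Col7a1 and Col16a1 in PEC against HN. In PEC against Control it ended that of Col4a3, Col4a4 and Col27a1, while Col4a2, Col4a6 and Col5a2, not called before, were called after it. These values are given with the genes.

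Kidney markers matched the tissue label. Umod of the thick limb, the most abundant marker, was at 878 ± 51.4 FPKM in Control and 1333 ± 70.9 in HN, and Slc34a1 of the proximal tubule at 708 ± 36.6 and 211 ± 4.04. These FPKM are on the scale of library totals. In the main test, described below, Umod was not called in HN mice and Slc34a1 was called lower. PEC replicate 3 differed in 5 adipocyte genes, whose summed FPKM was 118 there against 0.22 and 0.16 in the other PEC libraries.

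Collagen genes were mostly higher in kidneys of HN mice than in Control. In edgeR, where a gene was called at a fold of at least 1.5 and an adjusted p of at most 0.05 over all 21392 genes tested, 25 of the 41 tested collagens were higher in HN mice and 6 were lower. Over all tested genes 17.5% were called higher and 14.6% lower. The median log2 fold change of the 41 collagens was 1.54, against -0.0008 over all genes. With PEC, 3 collagens were higher and 19 lower than in HN mice, where 13.2% and 15.1% of all genes were. The median was -0.92 over the collagens and -0.015 over all genes. Between PEC and Control, 21 collagens were higher and 5 lower with PEC, against 18.7% and 17.3% of all genes, and medians of 1.19 and 0.045. The comparisons share libraries (HN mice enter both the first and the second), so that they are not independent of each other.

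Scaling mattered for the balance of calls. TMM factors, which correct for differences in RNA composition, were 0.778 to 0.832 in Control, 1.15 to 1.22 in HN and 1.02 to 1.05 in PEC. Mitochondrial genes held 12.9% to 16.3% of the counts of Control libraries, 6.01% to 6.34% of those of HN and 10.3% to 13.6% of those of PEC, and their part in the factors was not tested. With library totals in place of TMM the median of all genes moved to 0.56 in HN against Control, -0.21 in PEC against HN and 0.40 in PEC against Control. On that scale 30 collagens were higher and 3 lower in HN mice, 2 were higher and 21 lower with PEC against HN, and 25 were higher and 2 lower with PEC against Control. Of all genes 35.7% and 5.96%, 9% and 21.4%, and 29.7% and 9.05% were called higher and lower there, in the same order. In limma on log2(FPKM + 1), which tested 25 collagens and 15508 genes, the collagens called were 21 higher and 1 lower, 1 higher and 16 lower, and 15 higher and 2 lower. The shares of all genes in that fit were 30% and 6.6%, 8.74% and 21.9%, and 23.1% and 9.58%. FPKM are on the scale of library totals.

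Not all members were measurable. Col9a1 and Col9a2, chains of the cartilage collagen IX, had counts of 0 in all 9 libraries, and Col2a1, the main collagen of cartilage, had no more than 0.01 FPKM in any. These 3 genes were not tested, since they did not pass the filter on low counts. A member that passed the filter only through the group where it was high had to differ, so that the counts describe the tested genes and not all members. Among called collagens, Col11a1 (about 7, 273 and 7 fragments in Control, HN and PEC) and Col19a1 (89, 0 and 13) were of this kind. Their calls against the high group carry this limit, and they are included in the counts above.

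**Figure D1:**
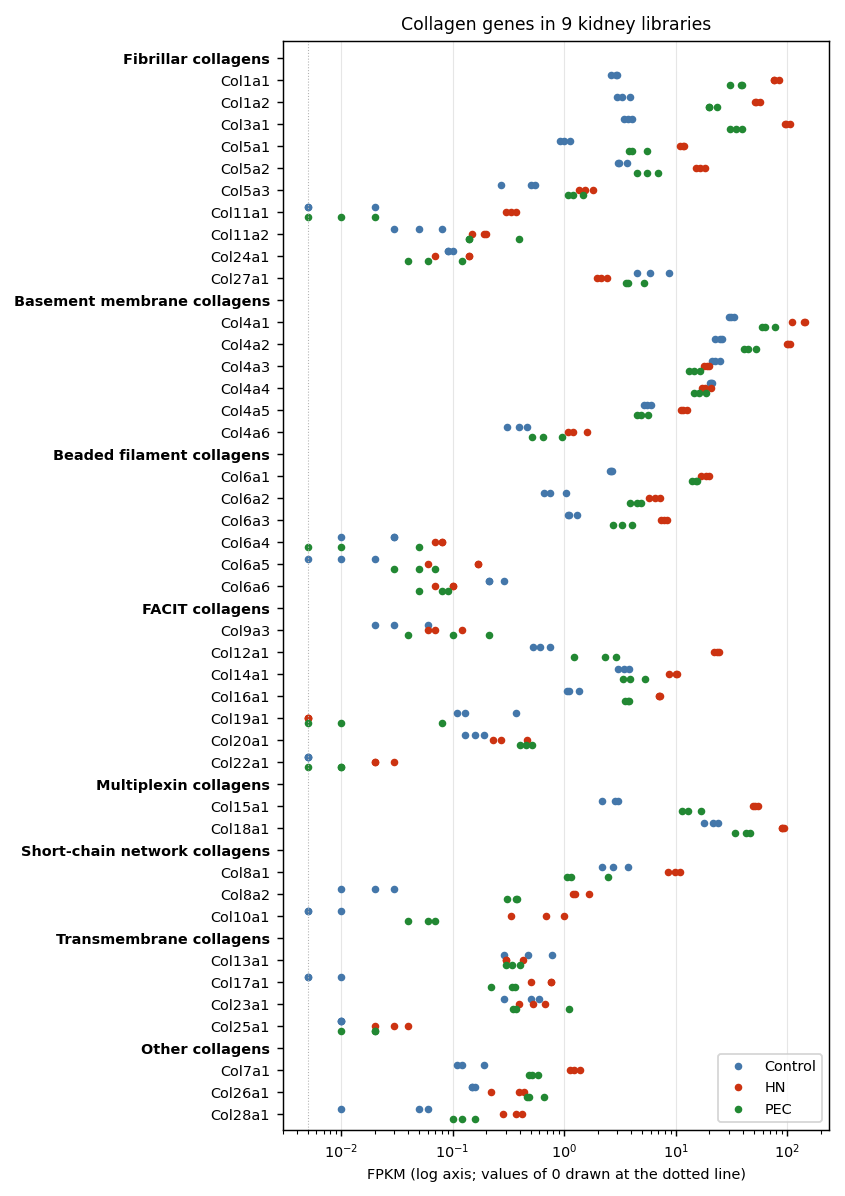
FPKM (log axis) of the 41 tested collagen genes, by class, in each of 9 kidney libraries (blue Control, red HN, green PEC; 3 points per group; values of 0 at the dotted line). For Col1a1, Col1a2, Col3a1, Col15a1 and Col18a1 the red points lie to the right of all others and the green points between red and blue.

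Fibrillar collagens, as a class, had the highest ratio of HN to Control in summed FPKM. Of the 10 tested, 7 were called higher and 1 lower in HN mice (median log2 fold change 2.39), and 1 higher and 6 lower with PEC against HN (median -1.03). By that median in HN mice the short-chain network (5.58), multiplexin (2.66) and other collagens (2.61), with 2 or 3 genes each, were above the fibrillar class. For the counts of this class and of the others below, 17.5% of all genes were higher and 14.6% lower in HN mice. With PEC against HN 13.2% were higher and 15.1% lower. Col1a1 (ENSMUSG00000001506, chr11:94936224-94953042) encodes the main chain of type I collagen. Its FPKM was 2.93, 2.65 and 2.95 (Control), 75.8, 84.2 and 76.5 (HN) and 38.1, 39.2 and 30.4 (PEC). The groups did not overlap. Col1a1 rose in HN mice by 4.26 on the log2 scale (SE 0.13, adjusted p = 2.55e-07), or 19.1-fold, and fell by 0.92 with PEC against HN (SE 0.11, adjusted p = 0.000267). Col1a2 (ENSMUSG00000029661, chr6:4504814-4541544), its partner chain, was at 2.96, 3.29 and 3.9 (Control), 52.9, 56.5 and 51.7 (HN) and 20.1, 23.2 and 19.9 (PEC) FPKM. Its order of groups was that of Col1a1, with HN highest, PEC between and Control lowest in every library. Log2 fold changes of Col1a2 were 3.45 ± 0.14 (SE) in HN against Control (adjusted p = 7.36e-07) and -1.13 ± 0.12 in PEC against HN (adjusted p = 0.000155).

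Col3a1 (ENSMUSG00000026043, chr1:45311538-45349706) encodes type III collagen of soft tissue fibrils. Over all 9 libraries it had the highest mean FPKM of its class, although Col27a1 was higher in Control and Col1a1 in PEC by group mean. Its values were 3.71, 3.46 and 4.03 (Control), 96.7, 105 and 96.1 (HN) and 34.9, 39.1 and 30.4 (PEC). Again HN libraries were all above PEC libraries and these above Control. The log2 fold change was 4.20 (SE 0.13, adjusted p = 2.55e-07) in HN mice and -1.30 (SE 0.12, adjusted p = 5.97e-05) with PEC against HN. Without the length trend, the log2 fold changes with PEC against HN were -0.66 for Col1a1, -0.66 for Col1a2 and -0.90 for Col3a1, and all 3 kept their call.

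Promoters of 2 fibrillar and 3 basement membrane genes are shown. RefSeq windows on build GRCm38.p6, from 250 bases before to 50 after each gene's start, matched 35 of the 44 collagen genes in 38 windows. Col1a1, Col2a1, Col4a3, Col5a2, Col9a3, Col12a1, Col14a1, Col22a1 and Col26a1 had no entry. Capitals mark matches on either strand to the CCAAT box, which is spelled as named, to the GC box with the letters GGGCGG, and to the TATA box with the letters TATAAA. The AP-1 site, TGACTCA, was searched as well and is in none of the windows shown. Within a window the matches marked do not overlap one another. The RefSeq start of Col1a2 lies inside the gene as annotated in the table. The Col1a2 window (chr6:4505368-4505667, plus strand) and the Col3a1 window (chr1:45311288-45311587, plus strand) read 5′ to 3′:
Col1a2: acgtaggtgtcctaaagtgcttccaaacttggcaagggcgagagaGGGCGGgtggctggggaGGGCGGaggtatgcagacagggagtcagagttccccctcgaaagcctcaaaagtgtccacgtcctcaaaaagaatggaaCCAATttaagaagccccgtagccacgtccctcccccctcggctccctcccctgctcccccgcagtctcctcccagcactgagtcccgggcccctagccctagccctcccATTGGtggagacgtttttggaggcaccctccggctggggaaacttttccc
Col3a1: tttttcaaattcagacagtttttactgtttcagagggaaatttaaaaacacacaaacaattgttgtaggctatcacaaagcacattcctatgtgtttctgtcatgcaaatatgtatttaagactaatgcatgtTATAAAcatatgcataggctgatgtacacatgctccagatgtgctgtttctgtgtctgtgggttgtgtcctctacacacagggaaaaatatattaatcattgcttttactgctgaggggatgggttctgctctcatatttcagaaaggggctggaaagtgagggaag
Col1a2 held 2 CCAAT boxes and 2 GC boxes, and Col3a1 held 1 TATA box and neither of the others. Their GC content was 61% and 37.7%. GC boxes were present in 23 of the 38 collagen windows (60.5%) and in 35.6% of all 32817 promoter windows, CCAAT boxes in 13 (34.2%) and 37.4%, and TATA boxes in 5 (13.2%) and 13.6%. The AP-1 site was in 1 collagen window (Col6a1) and in 5.2% of all. A match is a description of these letters, not of binding.

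Other fibrillar members covered a wide range. Col5a1 and Col5a2, which form type V collagen and set the diameter of type I fibrils, were both measured in every library. Col5a1 was at 1.01 ± 0.111 (Control), 11.5 ± 0.517 (HN) and 4.45 ± 0.919 (PEC) FPKM and Col5a2 at 3.27 ± 0.341 (Control), 16.6 ± 1.44 (HN) and 5.64 ± 1.2 (PEC). Both were called higher in HN mice (log2 fold changes 2.97 and 1.81) and lower with PEC (-1.15 and -1.34). Col5a3 was called higher in HN mice (log2 fold change 1.29, SE 0.25, adjusted p = 0.00262) and had a log2 fold change of -0.10 with PEC against HN (95% interval -0.66 to 0.45), not called. Col11a1, a cartilage fibril chain, was at 0, 0 and 0.02 (Control), 0.33, 0.3 and 0.37 (HN) and 0.02, 0.01 and 0 (PEC) FPKM. HN libraries alone were above 0.02. Its log2 fold change was 4.60 ± 1.18 (SE) in HN mice and -4.98 ± 1.20 with PEC, and the HN call was lost without Control 4 (4.22). Control 5 held 6 of the about 7 Control fragments, and without it the HN value was 6.88. The PEC value was -5.99 without PEC 1. Col11a1 passed the filter only through HN, so that both calls carry the limit given above. Col11a2 and Col24a1 stayed at or below 0.39 FPKM in every library and were not called in HN against Control or PEC against HN, but Col11a2 was called higher in HN mice without Control 4 (1.62) or PEC 3 (1.22), in DESeq2 (1.26), with library totals (1.77) and with only the 2 groups compared (1.26).

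Col27a1 (ENSMUSG00000045672, chr4:63214004-63333749), a fibrillar collagen best known from cartilage, went the other way. Its FPKM was 8.63, 5.92 and 4.49 (Control), 2.14, 1.97 and 2.43 (HN) and 3.71, 5.14 and 3.6 (PEC). Every HN library was below every Control library and below every PEC library, while PEC and Control overlapped. Col27a1 fell by 2.07 on the log2 scale in HN mice (SE 0.23, adjusted p = 0.000114) and rose by 1.15 with PEC against HN (SE 0.23, adjusted p = 0.00396).

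Summed over the class, fibrillar collagens reached 23.1, 20.04 and 20.4 (Control), 258, 280.2 and 255 (HN) and 107, 119 and 96.8 (PEC) FPKM. No library of one group reached another group. The ratio of group means was 12.5 for HN to Control and 5.08 for PEC to Control, or 8.48 and 3.96 after TMM scaling of FPKM.

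**Figure D2:**
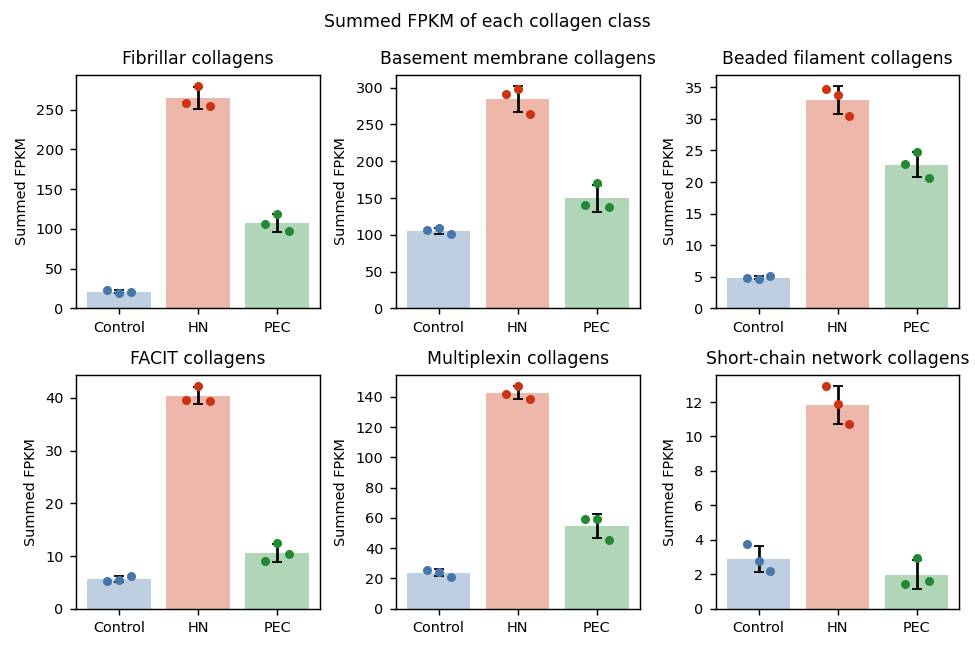
Summed FPKM of 6 collagen classes in Control, HN and PEC kidneys (bars, group mean; error bars, SD; points, 3 libraries per group). The fibrillar mean was 264.4 in HN and 21.2 in Control, and in the short-chain network class the PEC mean of 1.98 was the lowest of the 3 groups, with overlap of PEC and Control libraries.

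Basement membrane collagens split by chain, with 3 of 6 called higher and 2 lower in HN mice (median log2 fold change 0.89), and 3 lower with PEC against HN (median -0.71). Of all genes 17.5% were higher and 14.6% lower in HN mice, and 15.1% lower with PEC against HN. Col4a1 (ENSMUSG00000031502, chr8:11198423-11312826) and Col4a2 (ENSMUSG00000031503, chr8:11312805-11449287) encode the chains of the ordinary type IV network and lie head to head, with 22 bases shared by the annotated genes. Both windows are shown, since the genes share this start region. The Col4a1 window (chr8:11312777-11313076, minus strand) and the Col4a2 window (chr8:11312555-11312854, plus strand) overlap by 78 bases on opposite strands. The Col4a4 window (chr1:82586800-82587099, minus strand) is set beside them as a chain with a different course in HN mice.
Col4a1: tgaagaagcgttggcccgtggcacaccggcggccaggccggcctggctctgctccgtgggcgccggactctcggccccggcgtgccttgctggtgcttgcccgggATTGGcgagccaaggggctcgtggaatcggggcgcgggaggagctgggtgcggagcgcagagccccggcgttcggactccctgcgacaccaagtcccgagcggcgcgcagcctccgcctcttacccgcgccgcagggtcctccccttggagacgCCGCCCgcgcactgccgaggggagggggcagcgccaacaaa
Col4a2: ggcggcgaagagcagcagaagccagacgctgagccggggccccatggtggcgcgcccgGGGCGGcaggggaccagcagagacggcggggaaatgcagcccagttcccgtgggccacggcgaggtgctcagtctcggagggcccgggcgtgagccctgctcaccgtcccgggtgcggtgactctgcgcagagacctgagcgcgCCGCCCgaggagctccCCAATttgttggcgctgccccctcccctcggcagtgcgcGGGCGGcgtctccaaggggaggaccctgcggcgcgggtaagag
Col4a4: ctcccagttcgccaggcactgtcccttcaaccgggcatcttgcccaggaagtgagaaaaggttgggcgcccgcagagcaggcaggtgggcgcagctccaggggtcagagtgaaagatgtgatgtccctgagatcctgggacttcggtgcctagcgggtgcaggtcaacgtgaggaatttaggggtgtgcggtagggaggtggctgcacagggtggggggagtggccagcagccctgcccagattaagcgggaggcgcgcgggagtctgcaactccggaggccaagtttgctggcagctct
Capitals mark the same letters as above. The Col4a1 window held 1 CCAAT box and 1 GC box, and the Col4a2 window 1 CCAAT box and 3 GC boxes. The GC box of Col4a1 and 1 of the 3 of Col4a2 are the same bases (chr8:11312812-11312817), so that the 2 windows hold 3 separate GC boxes. None of the letters searched were found in the Col4a4 window. GC content was 74.0%, 73.7% and 63.3% in this order.

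Col4a1 had the highest mean FPKM of all 44 collagens, with 29.8, 33.6 and 31.1 (Control), 143, 142 and 111 (HN) and 63.03, 77.99 and 59.6 (PEC). Col4a2 was at 25.1, 26.2 and 22.4 (Control), 101, 105 and 99.6 (HN) and 41.02, 52.2 and 44.2 (PEC). In both genes HN libraries were highest, PEC libraries between and Control libraries lowest, without overlap. Col4a1 rose in HN mice (log2 fold change 1.54, SE 0.14, adjusted p = 2.8e-05), as did Col4a2 (log2 fold change 1.52, SE 0.10, adjusted p = 4.92e-06). With PEC against HN, Col4a1 fell by 0.77 (SE 0.14, adjusted p = 0.00237) and Col4a2 by 0.94 (SE 0.10, adjusted p = 0.000135). After removal of the length trend the Col4a1 difference was -0.46 and no longer called, and after removal of length and GC trends it was -0.58 for Col4a1 and -0.57 for Col4a2, neither called. The FPKM ratio of Col4a1 to Col4a2 was 1.29 ± 0.104 in Control, 1.29 ± 0.158 in HN and 1.46 ± 0.099 in PEC. PEC 1 (1.54) and PEC 2 (1.49) lay above every Control and HN library in this ratio.

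Col4a3 (ENSMUSG00000079465, chr1:82586921-82722059) and Col4a4 (ENSMUSG00000067158, chr1:82448423-82586849) encode chains of the glomerular basement membrane, which podocytes make, and are a head-to-head pair as well, with 71 bases between them. The FPKM of Col4a3 was 24.96, 22.7 and 21.2 (Control), 17.8, 19.9 and 19.1 (HN) and 14.5, 16.6 and 13.1 (PEC), and C430014B12Rik on the other strand overlaps 5.65% of its exon bases. That of Col4a4 was 20.3, 20.97 and 20.5 (Control), 17.3, 18.5 and 20.7 (HN) and 16.2, 18.9 and 14.6 (PEC). HN libraries of Col4a3 lay below Control and above PEC, and those of Col4a4 overlapped both. On the TMM scale both fell in HN mice, Col4a3 by 0.81 (SE 0.10, adjusted p = 0.00016) and Col4a4 by 0.67 (SE 0.10, adjusted p = 0.000595). With library totals the log2 fold changes were -0.25 and -0.11, neither called. With PEC against HN, Col4a3 was at -0.14 (95% interval -0.36 to 0.08) and Col4a4 at 0.034 (-0.19 to 0.26), not called. Without the length trend they were at 0.26 and 0.46, not called either, so that the direction of Col4a3 turned and Col4a4 lay above its interval. The FPKM ratio of Col4a1 to Col4a3 went from 1.38 ± 0.163 in Control to 6.99 ± 1.1 in HN and 4.53 ± 0.175 in PEC.

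Podocyte markers are set beside these chains. The summed FPKM of 5 podocyte genes (Podxl the most abundant, none at 0) was 57.1, 56.8 and 55.3 (Control), 83.9, 77.3 and 73.9 (HN) and 79.9, 77.4 and 69.8 (PEC). 1 of the 5, Synpo, was called higher in HN mice and none with PEC against HN, and the median log2 fold change in HN mice was 0.17. Over all genes 17.5% were called higher in HN mice, and 13.2% higher and 15.1% lower with PEC against HN. Their part in the Col4a3 and Col4a4 values was not tested.

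Col4a5 and Col4a6, the X-linked chains, form another head-to-head pair, with 1308 bases between them. Col4a5 (ENSMUSG00000031274, chrX:141475385-141689234), partner of the glomerular chains, was at 5.96, 5.47 and 5.2 (Control), 11.7, 11.2 and 12.7 (HN) and 4.89, 4.48 and 5.65 (PEC) FPKM. Control and PEC overlapped and HN was higher. Its log2 fold change in HN mice was 0.57 (SE 0.10, adjusted p = 0.00157), just under the fold of 1.5. It was called without Control 2 (0.62) or HN 8 (0.62), with library totals (1.13), and in DESeq2 (0.60) and limma (0.98 on log2(FPKM + 1)). With PEC against HN, Col4a5 fell by 1.03 (SE 0.10, adjusted p = 9.32e-05). Col4a6 (ENSMUSG00000031273, chrX:141165403-141474076) was low, at 0.46, 0.39 and 0.31 (Control), 1.2, 1.08 and 1.59 (HN) and 0.64, 0.51 and 0.95 (PEC) FPKM. It rose in HN mice (log2 fold change 1.21, SE 0.26, adjusted p = 0.00449), and with PEC against HN its log2 fold change of -0.66 (adjusted p = 0.0685) was called only without PEC 3 (-0.92) among the libraries left out. It was also called in DESeq2 (-0.68), with library totals (-0.86) and in limma on log2(FPKM + 0.1) (-0.82).

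Summed basement membrane collagens were 106, 109 and 101 (Control), 292, 298 and 265 (HN) and 140.3, 171 and 138 (PEC) FPKM. HN libraries were highest, and PEC libraries lay above Control. The HN to Control ratio of means was 2.7, or 1.84 after TMM scaling. That of PEC to Control was 1.42, or 1.11 after TMM scaling, where PEC 3 (132.2) and Control 4 (131.3) were close. The median log2 fold change of the class in PEC against Control was 0.041.

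**Figure D3:**
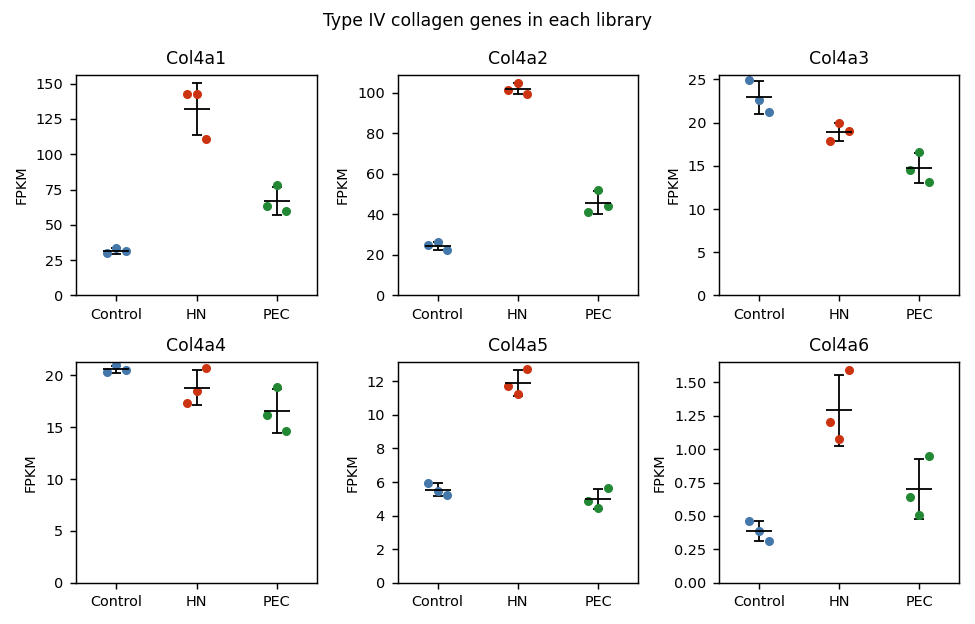
FPKM of the 6 type IV collagen genes in each library (points), with group mean and SD (black). Col4a1, Col4a2, Col4a5 and Col4a6 were highest in HN libraries, and Col4a3 and Col4a4 were not.

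Of 6 beaded filament collagens 4 were called higher and 1 lower in HN mice (median log2 fold change 2.24), and 1 was called lower with PEC against HN (median -0.68). Beside these stand 17.5%, 14.6% and 15.1% of all genes, so that 1 of 6 is near the shares called lower. Col6a1 (ENSMUSG00000001119, chr10:76708792-76726168), Col6a2 (ENSMUSG00000020241, chr10:76595762-76623630) and Col6a3 (ENSMUSG00000048126, chr1:90765923-90843971) encode the 3 chains of the common type VI heterotrimer, with Col6a1 and Col6a2 on the same strand of chromosome 10. Col6a1 was at 2.64, 2.55 and 2.68 (Control), 19.7, 18.5 and 16.7 (HN) and 15.1, 15.6 and 13.9 (PEC) FPKM. Col6a2 was at 0.66, 0.75 and 1.03 (Control), 7.26, 6.56 and 5.76 (HN) and 4.45, 4.85 and 3.92 (PEC). Col6a3 was at 1.31, 1.09 and 1.1 (Control), 7.44, 8.37 and 7.81 (HN) and 3.27, 4.03 and 2.73 (PEC). All 3 were highest in HN libraries and lowest in Control, with PEC libraries below HN and above Control. Log2 fold changes in HN mice were 2.27 ± 0.10 (SE) for Col6a1 (adjusted p = 1.03e-06), 2.46 ± 0.20 for Col6a2 (adjusted p = 1.19e-05) and 2.22 ± 0.14 for Col6a3 (adjusted p = 4.42e-06). With PEC against HN, Col6a3 fell by 1.02 (SE 0.14, adjusted p = 0.000481), and by 0.56 and no longer called without the length trend. Col6a1 and Col6a2 were not called, at -0.086 (95% interval -0.31 to 0.14) and -0.35 (-0.77 to 0.063). The FPKM ratio of Col6a3 to Col6a1 was 0.445 ± 0.0454 in Control, 0.432 ± 0.0487 in HN and 0.224 ± 0.0313 in PEC. PEC libraries were the lowest in this ratio, and Control and HN overlapped. The exon set of Col6a3 is 11.96 kb long and that of Col6a1 4.38 kb, and the length trend differed between the groups. With the trend removed, the log2 fold changes in PEC against HN were -0.56 for Col6a3 and 0.0 for Col6a1, where they had been -1.02 and -0.086.

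Col6a4, Col6a5 and Col6a6, which lie side by side on chromosome 9, were rare, with means of at most 0.237 FPKM. Col6a6 was at 0.21, 0.21 and 0.29 (Control), 0.1, 0.1 and 0.07 (HN) and 0.05, 0.08 and 0.09 (PEC). It was lower in HN mice than in Control (log2 fold change -1.95, SE 0.31, adjusted p = 0.000793) and was not called with PEC against HN (log2 fold change -0.072, 95% interval -0.76 to 0.62, and 0.32 without the length trend). Col6a5 was called higher in HN mice (log2 fold change 3.02, SE 0.61, adjusted p = 0.00333) and not called with PEC, and Col6a4 was called in neither comparison, but lower with PEC without PEC 2 (-3.48).

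FACIT collagens, which decorate fibrils, had 7 tested members, of which 3 were called higher and 1 lower in HN mice (median log2 fold change 0.96), and 1 higher and 3 lower with PEC against HN (median -0.73). Col12a1 (ENSMUSG00000032332, chr9:79598991-79718720), which sits on type I fibrils, was at 0.52, 0.61 and 0.74 (Control), 22.1, 24.4 and 23.3 (HN) and 1.22, 2.93 and 2.32 (PEC) FPKM. Control and PEC values were all below 3 and HN values all above 22. Col12a1 rose in HN mice by 4.67 on the log2 scale (SE 0.33, adjusted p = 1.11e-05) and fell by 3.21 with PEC against HN (SE 0.30, adjusted p = 0.000117), or by 2.69 without the length trend. Col14a1, a related fibril-surface collagen, was at 3.44 ± 0.39 (Control), 9.68 ± 0.834 (HN) and 4.16 ± 0.989 (PEC) FPKM. It was called higher in HN mice (log2 fold change 0.96) and lower with PEC (-1.0), and its PEC and Control libraries overlapped. Col16a1 was at 1.17 ± 0.154 (Control), 7.09 ± 0.0702 (HN) and 3.67 ± 0.138 (PEC) FPKM, with log2 fold changes of 2.05 and -0.73, both called. Without the length trend the PEC value was -0.46, and without length and GC trends -0.27, neither called.

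Col19a1 (ENSMUSG00000026141, chr1:24261890-24587472), a FACIT of basement membrane zones, was listed at 0 in all HN libraries. Control replicates held about 17, 19 and 54 fragments and PEC replicates 2, 11 and 0. FPKM were 0.11, 0.13 and 0.37 (Control), 0, 0 and 0 (HN) and 0.01, 0.08 and 0 (PEC). Taking 3 fragments in each HN library as the floor, Col19a1 was at least 9.93-fold lower in HN than in Control on the FPKM scale, or at least 5.86-fold without Control 5. Such floors, and the intervals given for ratios of fragments, cover counting error only. PEC was at least 1.47-fold higher than HN by this floor, which is under the fold of 1.5, and its mean was 0.244 of the floor without PEC 2, so that counting alone does not place PEC above HN there. In edgeR the PEC difference was called higher (adjusted p = 0.0439), and the call was lost on leaving out Control 2, Control 4, HN 4, HN 8, HN 12, PEC 1 or PEC 2, each alone (adjusted p 0.0657 to 0.0941). Col20a1 was at 0.16, 0.13 and 0.19 (Control), 0.23, 0.46 and 0.27 (HN) and 0.4, 0.51 and 0.45 (PEC) FPKM and Col9a3 at 0.06, 0.03 and 0.02 (Control), 0.07, 0.12 and 0.06 (HN) and 0.21, 0.1 and 0.04 (PEC). Col20a1 was called neither in HN mice (log2 fold change 0.45, adjusted p = 0.282) nor with PEC against HN (0.73, adjusted p = 0.087), where it was called without HN 8 (1.07). With library totals it was called higher in HN mice (1.02), and it was called higher in PEC against Control (1.19). Col9a3 was called in neither as well, and Col22a1 was at or below 0.03 FPKM.

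Multiplexins, proteoglycan collagens of basement membrane zones that include the source of endostatin, both rose in HN mice. Col15a1 (ENSMUSG00000028339, chr4:47208161-47313167) was at 2.17, 2.84 and 3.04 (Control), 51.7, 54.1 and 49.6 (HN) and 12.8, 16.8 and 11.4 (PEC) FPKM. Col18a1 (ENSMUSG00000001435, chr10:77052178-77166548), the endostatin gene, was at 23.7, 21.5 and 18.03 (Control), 90.3, 92.95 and 89.1 (HN) and 46.2, 42.7 and 34.3 (PEC). Both were highest in HN, lower in PEC and lowest in Control, without overlap. Log2 fold changes in HN mice were 3.74 ± 0.18 (SE, adjusted p = 1.35e-06) and 1.57 ± 0.13 (adjusted p = 1.31e-05). With PEC against HN, Col15a1 fell by 1.71 (adjusted p = 9.35e-05) and Col18a1 by 0.93 (adjusted p = 0.000445), the latter by 0.52 and not called after removal of length and GC trends. The FPKM ratio of Col15a1 to Col18a1 was 0.131 ± 0.0386 in Control, 0.571 ± 0.0127 in HN and 0.334 ± 0.0576 in PEC.

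All 3 short-chain network collagens passed the test in both comparisons, upward in HN mice and downward in PEC against HN. The shares of all genes called in these directions were 17.5% and 15.1%. Col8a1 (ENSMUSG00000068196, chr16:57624258-57754737), a chain of type VIII collagen of vessel walls, was at 3.7, 2.74 and 2.19 (Control), 10.98, 9.87 and 8.51 (HN) and 1.06, 2.48 and 1.16 (PEC) FPKM. HN libraries were highest, and PEC and Control overlapped. Col8a1 rose in HN mice (log2 fold change 1.24, SE 0.33, adjusted p = 0.0159), a call lost without Control 4 (1.19), Control 5 (1.10) or HN 4 (1.13), and fell by 2.43 with PEC against HN (SE 0.34, adjusted p = 0.000839). In PEC against Control it was called lower (log2 fold change -1.19, adjusted p = 0.0181), a call lost without Control 2 (-0.98), PEC 1 (-0.97) or PEC 3 (-1.0) and with library totals (-0.84). Col8a2 (ENSMUSG00000056174, chr4:126286793-126314330), its partner chain, was at 0.03, 0.02 and 0.01 (Control), 1.24, 1.67 and 1.21 (HN) and 0.31, 0.38 and 0.37 (PEC) FPKM. It was near 0 in Control and highest in HN, with log2 fold changes of 5.58 ± 0.35 (SE) in HN mice and -1.74 ± 0.28 with PEC. Col10a1 (ENSMUSG00000039462, chr10:34389981-34397085), a collagen of hypertrophic cartilage, was at 0, 0 and 0.01 (Control), 0.69, 0.33 and 0.99 (HN) and 0.04, 0.07 and 0.06 (PEC) FPKM. Control held about 1 fragment in all, HN 132 and PEC 10. The HN to Control ratio of fragments, scaled by depth and TMM, was 89.2 (exact 95% counting interval 15.7 to 3549). The Control fragment was in Control 5, without which HN was at least 14.4-fold above Control by the floor, and the ratio was 59.3 without Control 2 and 59.2 without Control 4. Col10a1 in PEC against HN had a log2 fold change of -3.37 (adjusted p = 0.00825).

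Transmembrane collagens were low throughout. Col17a1 (ENSMUSG00000025064, chr19:47646344-47692094), the collagen of epithelial hemidesmosomes, was at 0, 0.01 and 0 (Control), 0.5, 0.76 and 0.76 (HN) and 0.22, 0.34 and 0.36 (PEC) FPKM. About 1 fragment was seen in Control, 262 in HN and 108 in PEC. The HN to Control ratio was 177.0 (31.5 to 7019, the same kind of interval) and the PEC to Control ratio 91.6 (16.1 to 3649). The Control fragment was in Control 4, and without that library HN was at least 28.4-fold and PEC at least 12.9-fold above Control by the floor. The ratios were 118 and 60.9 without Control 2, and 119 and 61.4 without Control 5. With PEC against HN the log2 fold change was -0.91 (adjusted p = 0.177), called only without Control 4 (-0.92) among the libraries left out. It was also called in DESeq2 (-0.93) and with only the 2 groups compared (-0.91). With counts divided by the size of a fragment, chosen after seeing the data, it was called as well (-0.88). Col13a1, a collagen of cell adhesions, was at 0.78, 0.47 and 0.29 (Control), 0.43, 0.3 and 0.3 (HN) and 0.3, 0.4 and 0.34 (PEC) FPKM. It was called lower in HN mice (log2 fold change -1.11, adjusted p = 0.0304) although its FPKM overlapped, and the call was lost without Control 2 (-0.69), Control 4 (-1.18), HN 8 (-1.0) or HN 12 (-1.01). It was also lost with library totals (-0.57), with only the 2 groups compared (-1.07) and in limma without a filter (-0.16). Col23a1 was at 0.29, 0.59 and 0.5 (Control), 0.52, 0.39 and 0.67 (HN) and 0.37, 0.35 and 1.11 (PEC) FPKM. Its mean over all 9 libraries was the highest of this class, with PEC replicate 3 above the rest, while by group mean Col13a1 was higher in Control and Col17a1 in HN. Neither it nor Col25a1 was called in any of the 3 comparisons.

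Col7a1 (ENSMUSG00000025650, chr9:108953586-108984875), the anchoring fibril collagen, was at 0.12, 0.19 and 0.11 (Control), 1.13, 1.38 and 1.23 (HN) and 0.51, 0.48 and 0.58 (PEC) FPKM. Groups did not overlap. It rose in HN mice (log2 fold change 2.61, SE 0.21, adjusted p = 1.37e-05) and fell by 1.03 with PEC against HN (SE 0.20, adjusted p = 0.00327), or by 0.61 and not called without the length trend. The PEC value was -0.43 after removal of length and GC trends and -0.56 in limma on log2(FPKM + 1), neither called. Col26a1 was at 0.16, 0.15 and 0.15 (Control), 0.39, 0.22 and 0.44 (HN) and 0.66, 0.48 and 0.46 (PEC) FPKM. In HN against Control its log2 fold change was 0.63 (adjusted p = 0.0997), called without HN 8 (0.87) and with library totals (1.18). It was called higher with PEC against HN (log2 fold change 0.81, adjusted p = 0.0414), and lost the call without Control 2 (0.80), Control 4 (0.80), Control 5 (0.80), HN 4 (0.92), HN 8 (0.56), PEC 1 (0.63) or PEC 2 (0.87). The call was also lost with library totals (0.61), without a filter on low counts (0.78), with only the 2 groups compared (0.81, adjusted p = 0.0642) and in limma without a filter (0.18). Col28a1 was called higher in HN mice (log2 fold change 2.67, SE 0.56, adjusted p = 0.00383) and not with PEC against HN, where at -1.28 (adjusted p = 0.0797) it was called lower without Control 2 (-1.29), in DESeq2 (-1.30), with library totals (-1.47), with only the 2 groups compared (-1.28) and with counts divided by the size of a fragment (-1.19), the last chosen after seeing the data.

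**Figure D4:**
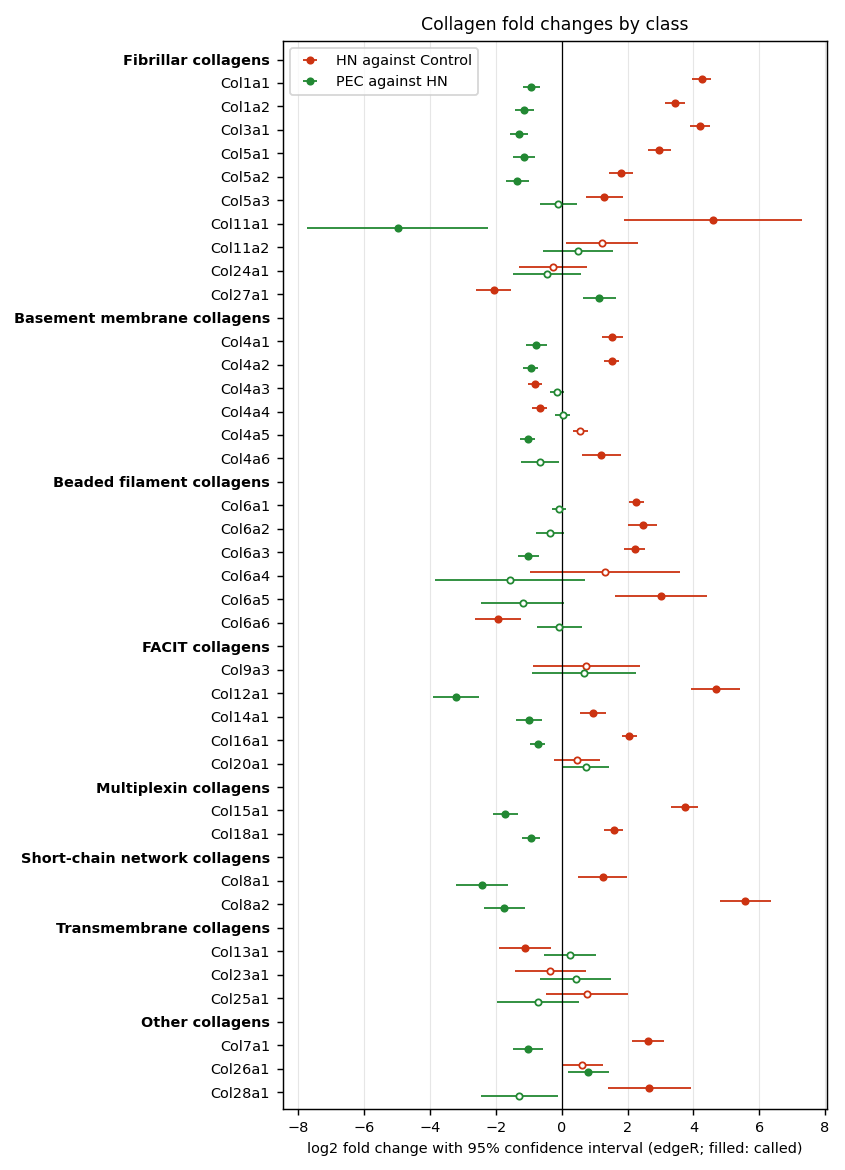
Log2 fold changes (edgeR, TMM) with 95% confidence intervals of 37 collagens by class, for HN against Control (red) and PEC against HN (green); filled points were called, and Col19a1, Col10a1, Col17a1 and Col22a1, with at most 3 fragments in a group, are not drawn. For Col4a3 and Col4a4 the red points lie left of 0, where with library totals they were -0.25 and -0.11 and not called.

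Classes took different shares of the summed collagen FPKM. Basement membrane genes held 63.9% ± 1.34 of it (SD, n = 3) in Control, 36.5% ± 0.843 in HN and 42.8% ± 1.49 in PEC. Fibrillar genes held 12.8% ± 0.812, 33.9% ± 0.802 and 30.8% ± 0.459, in the same order. Beaded filament genes held 2.96% ± 0.273, 4.23% ± 0.188 and 6.52% ± 0.198, highest in PEC. The length trend was not removed from these FPKM shares. FACIT genes held 3.43% ± 0.476, 5.18% ± 0.115 and 3.03% ± 0.352, and multiplexins 14.4% ± 0.875, 18.3% ± 0.349 and 15.6% ± 1.47. Collagens as a whole took 0.151% ± 0.00752 of the library count in Control, 0.71% ± 0.031 in HN and 0.315% ± 0.0306 in PEC.

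Proportions within type I collagen differed in FPKM as well. The FPKM ratio of Col1a1 to Col1a2 was 0.99, 0.805 and 0.756 (Control), 1.43, 1.49 and 1.48 (HN) and 1.9, 1.69 and 1.52 (PEC). Every PEC library lay above every HN library and these above Control. The ratio of Col1a1 to Col3a1 was 0.763 ± 0.029, 0.793 ± 0.00815 and 1.03 ± 0.052 in Control, HN and PEC. The Col1a2 exon set is 12.43 kb long and that of Col1a1 6.56 kb, and the length trend differed between the groups. With the trend removed, the log2 fold changes in PEC against HN were -0.66 for Col1a1 and -0.66 for Col1a2, where they had been -0.92 and -1.13, so that the FPKM difference in their ratio between PEC and HN was not seen on that scale. With length and GC trends removed they were -0.70 and -0.88. In HN against Control they were 4.24 and 3.46 without the length trend, and 4.26 and 3.45 with it. For Col3a1, whose exon set is 9.82 kb long, the PEC against HN value was -0.90 without the length trend and -1.30 with it.

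PEC mice and Control were compared directly as well. Col1a1, Col1a2 and Col3a1 were higher with PEC than in Control, with log2 fold changes of 3.34, 2.32 and 2.90. Col6a1, Col6a2 and Col6a3 were at 2.19, 2.11 and 1.20, all called higher. Col4a1 was called higher (log2 fold change 0.77, SE 0.14, adjusted p = 0.00166). Col4a2 was at 0.58 (adjusted p = 0.00114), not called, and was called with the length trend removed (0.83), with library totals (0.94) and without Control 2 (0.59), Control 4 (0.61), PEC 1 (0.66) or PEC 3 (0.63). Col4a3 was called lower (-0.95, adjusted p = 6.57e-05), but at -0.54 and not called without the length trend. Col4a4 was called lower (-0.63, adjusted p = 0.000795), and not called without the length trend (-0.20), with library totals (-0.27) or without PEC 3 (-0.53). Col4a6, at 0.55 (adjusted p = 0.112), was called without PEC 2 (0.72), without the length trend (0.89), with library totals (0.90) and in limma on log2(FPKM + 0.1) (0.69). Col5a2, at 0.47 (adjusted p = 0.0362), was called without the length trend (0.88), with library totals (0.83) and without PEC 1 (0.60). Among the multiplexins, Col15a1 was at 2.03, and Col18a1 was called higher (log2 fold change 0.65, SE 0.12, adjusted p = 0.0023), a call lost without Control 5 (0.56) or PEC 1 (0.55). Col12a1 (1.46), Col8a2 (3.84), Col7a1 (1.58) and Col17a1 were called higher too. Col27a1 was called lower (log2 fold change -0.92, SE 0.22, adjusted p = 0.00867), and was not called without the length trend (-0.43) or with library totals (-0.57). Col10a1 was called higher by adjusted p (0.0462), with a ratio of fragments to Control of 8.48 (1.21 to 368). This ratio was 5.64 without Control 2 and 5.63 without Control 4, with intervals that reach below 1, and PEC was at least 1.22-fold above Control by the floor without Control 5. Col10a1 lost the call on leaving out any 1 library other than Control 5 (adjusted p 0.05045 to 0.112). Col19a1 was not called (adjusted p = 0.0956), but was called lower without PEC 2 (adjusted p = 0.0181). Col13a1 (-0.85, adjusted p = 0.0754) was called lower without Control 5 (-1.12). Col11a2 was called higher (1.73, adjusted p = 0.0175), a call lost without Control 2 (1.63), Control 5 (1.49) or PEC 3 (1.08). Col6a5 was called higher (1.83, adjusted p = 0.0327), a call lost without Control 2 (1.48), Control 4 (1.82), PEC 1 (1.81) or PEC 2 (1.54). Both calls were lost in limma without a filter (0.21 and 0.056), and that of Col6a5 with counts divided by the size of a fragment (1.78).

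**Figure D5:**
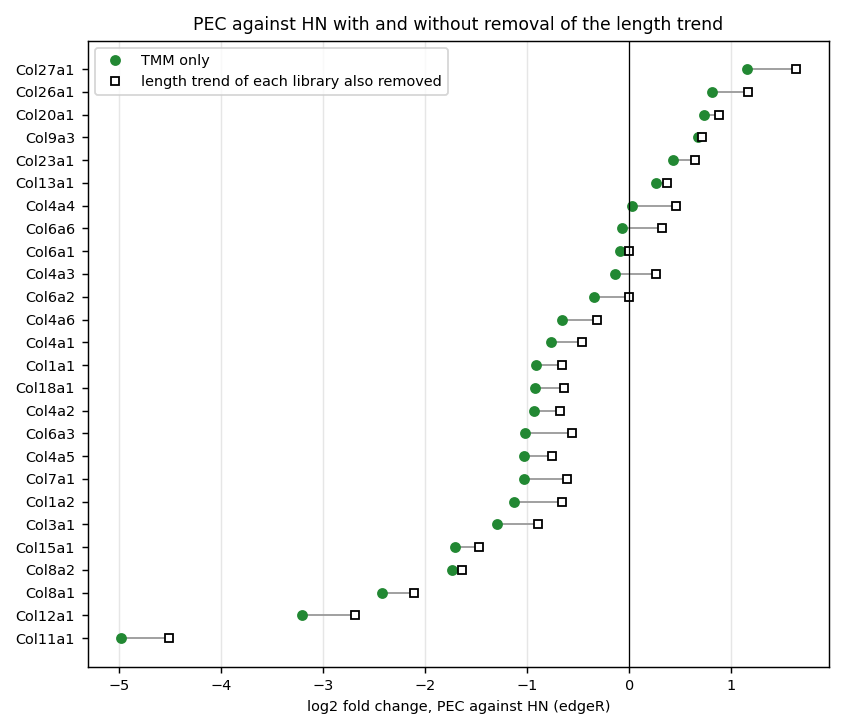
Log2 fold change of PEC against HN (edgeR) for 26 collagens, with TMM alone (green) and after removal of each library's length trend (squares). The squares lie to the right of the green points; Col4a1 moved from -0.77 to -0.46, and Col6a1 and Col6a2 reached about 0.

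Genes that process collagen moved with the family in part. Of 31 biosynthesis genes (hydroxylases, chaperones, proteinases and lysyl oxidases) 30 were tested, and 13 were called higher and 2 lower in HN mice, and 0 higher and 12 lower with PEC against HN. Over all genes tested, 17.5% were called higher and 14.6% lower in HN mice, and 13.2% and 15.1% with PEC against HN. The highest by mean FPKM over all libraries were P4hb, the prolyl hydroxylase subunit, at 211 ± 11.1 (Control), 215 ± 10.1 (HN) and 269 ± 26.99 (PEC), Serpinh1, the collagen chaperone, at 36.5 ± 11.1 (Control), 88.03 ± 39.3 (HN) and 104 ± 5.38 (PEC), Ppib at 39.5 ± 2.75 (Control), 62.2 ± 1.52 (HN) and 76.6 ± 3.5 (PEC) and Crtap at 19.9 ± 1.76 (Control), 35.2 ± 1.12 (HN) and 30.1 ± 9.14 (PEC). None of these 4 was called in either comparison, except that with PEC against HN P4hb was called higher without HN 4 (0.59) or PEC 3 (0.64) and Serpinh1 without HN 12 (0.86). Serpinh1 of HN replicate 12 was at 133 FPKM against 65.7 and 64.9 in the other HN libraries. Lox, the lysyl oxidase that cross-links collagen, was at 1.62, 2.24 and 1.21 (Control), 24.1, 21.3 and 15.03 (HN) and 4.18, 5.01 and 5.41 (PEC) FPKM, highest in all HN libraries. Lox rose in HN mice (log2 fold change 3.05, SE 0.25, adjusted p = 2.01e-05) and fell by 1.84 with PEC (SE 0.24, adjusted p = 0.000466). Loxl1, Loxl2, Bmp1, Adamts2, Fkbp10, P3h1, P3h3 and P3h4 shared both calls, with log2 fold changes of 0.85 (P3h1) to 3.72 (Adamts2) in HN mice and of -1.47 (Adamts2) to -0.59 (P3h1) with PEC against HN. The PEC call of Loxl1 was lost without HN 4 (-0.64), and that of P3h1 without HN 4 (-0.47), HN 12 (-0.57), PEC 1 (-0.51) or PEC 3 (-0.58). P4ha3 was at 0 in Control, at least 6.4-fold higher in HN by the floor of 3 fragments in each library, and called lower with PEC against HN (log2 fold change -2.49, adjusted p = 0.0221). That call was lost without HN 4 (-2.54), HN 8 (-2.56), HN 12 (-2.36) or PEC 2 (-2.47), and the value was -3.08 without PEC 3. P4ha3, with about 0, 59 and 8 fragments in Control, HN and PEC, passed the filter only through HN. Its calls therefore had to differ in that direction and are no separate result.

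Of 9 collagen receptor genes 8 were tested. Of these, 6 were called higher and 0 lower in HN mice, and 0 higher and 2 lower with PEC. For this list and the next, the shares of all genes were 17.5% higher and 14.6% lower in HN mice. With PEC against HN they were 13.2% and 15.1%. Ddr1, a receptor kinase for collagen, was the highest, at 25.3 ± 3.34 (Control), 55.2 ± 1.8 (HN) and 39.8 ± 3.17 (PEC) FPKM and called higher in HN mice only (log2 fold change 0.59), a call lost without Control 5 (0.51) or HN 8 (0.58). Mrc2, which takes up collagen, and Ddr2 had log2 fold changes of 2.43 and 1.49 in HN mice and -0.89 and -1.28 with PEC, all called, and Itga1 was called in neither, but higher in HN mice without Control 5 (0.70). All 9 fibril partner genes were tested; 5 were higher and 2 lower in HN mice, and 1 higher and 5 lower with PEC. Fn1, fibronectin, was at 1.47, 1.62 and 2.01 (Control), 41.7, 39.6 and 42.01 (HN) and 10.6, 14.6 and 11.2 (PEC) FPKM, with HN highest and Control lowest, and log2 fold changes of 4.05 and -1.55. Bgn (biglycan), at 16.3 ± 1.29 (Control), 112 ± 4.21 (HN) and 86.5 ± 6.5 (PEC) FPKM, was called higher in HN mice (2.25) and not called with PEC (-0.16). Dcn, Lum and Prelp, small proteoglycans on fibrils, had log2 fold changes of 1.40, 2.36 and 1.34 in HN mice and of -0.74, -1.71 and -0.96 on PEC against HN. Those of Tnxb, tenascin-X, were -0.77 and 0.66, all called, the latter not without PEC 2 (0.57).

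Markers of cell types were read beside the collagens. Of all genes tested, 17.5% were called higher and 14.6% lower in HN mice, and 13.2% and 15.1% with PEC against HN. The summed FPKM of 5 fibroblast and pericyte genes (Pdgfrb the most abundant, none at 0) was 17.2, 16.8 and 10.9 (Control), 65.8, 65.8 and 55.2 (HN) and 33.4, 35.5 and 35.9 (PEC). In HN mice all 5 were called higher, and with PEC Pdgfra and Dpt were called lower, Dpt not without HN 4 (-0.74), HN 8 (-0.84), PEC 1 (-0.71) or PEC 2 (-0.81). Myofibroblast and smooth muscle genes summed to 45.2, 43.8 and 42.6 (Control), 159, 139.9 and 131 (HN) and 105, 126 and 107 (PEC) (Tagln the most abundant, none at 0); 3 of 5 were higher in HN mice, and 1, Postn, was lower and 1, Myh11, higher with PEC. The Postn call was lost on leaving out any 1 library other than Control 4, Control 5 or PEC 3, and its log2 fold change of -1.79 was -2.78 without PEC 3. Immune genes, with Csf1r the most abundant over all 9 libraries and Cd68 in PEC, summed to 8.94, 9.98 and 11.3 (Control), 81.6, 87.7 and 77.9 (HN) and 36.2, 40.0 and 44.0 (PEC); 5 of 5 were called higher in HN mice, and 3 were lower on PEC treatment. Proximal tubule genes, with Slc34a1 the most abundant, summed to 1002, 1038 and 1107 (Control), 335, 336 and 338 (HN) and 617, 736 and 438 (PEC); 4 of 5 were called lower in HN mice and the same 4 higher on PEC treatment. Among these 4 the PEC call of Lrp2 (0.69) was lost without HN 8 (0.61), PEC 1 (0.62) or PEC 2 (0.54). The fifth, Slc5a12, was at -1.13 in HN mice and -1.08 with PEC against HN, neither called, and without PEC 2 it was called lower in both (-1.12 and -1.93). The part of these cell types in the collagen values was not tested.

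Summed FPKM of the remaining marker lists were 1210 ± 66.8, 1563 ± 92.2 and 1357 ± 74.01 (Control, HN and PEC) for the thick limb and distal tubule, 342 ± 115, 246 ± 44.3 and 303 ± 38.5 for the collecting duct, and 40.1 ± 2.14, 48.2 ± 0.947 and 41.2 ± 9.12 for endothelium. These sums are on the scale of library totals, and the calls use TMM. In HN mice 3 of 5, 3 of 5 and 2 of 5 of the genes in these lists were lower and none higher, against 14.6% and 17.5% of all genes. With PEC against HN, Slc12a3, Pvalb, Aqp3, Fxyd4 and Emcn were called higher and none lower, against 13.2% and 15.1% of all genes. The Aqp3 call was lost without HN 8 (0.56). That of Emcn (0.59) was lost without Control 2, Control 4, Control 5, HN 8, HN 12 or PEC 3 (0.39 to 0.58). Kdr was called lower without PEC 3 (-0.70). Urothelial genes, which bear on Col17a1 and Col7a1, summed to 6.33, 7.03 and 3.13 (Control), 33.02, 33.9 and 20.1 (HN) and 17.8, 23.8 and 40.5 (PEC). Krt20 had the highest mean over all 9 libraries, with Upk3a above it in Control, and was the only 1 called higher in HN mice. The median log2 fold change of the 5 was -0.27 in HN mice and 1.07 with PEC against HN, so that the list did not rise as a whole in HN mice. Cartilage and bone genes, which bear on Col10a1 and Col11a1, summed to 0.2, 0.16 and 0.14 (Control), 0.91, 0.88 and 0.83 (HN) and 0.54, 0.39 and 0.59 (PEC), nearly all of it Runx2, with Acan at 0 in all libraries. Adipocyte genes (Adipoq the most abundant over all 9 libraries, Cidec in Control) summed to 4.33, 0.13 and 0.05 (Control), 0.27, 0.39 and 11.9 (HN) and 0.22, 0.16 and 118 (PEC), and none was called. Their part in the collagen values was not tested.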

How the data were processed

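Kidney poly(A) RNA of 9 mice was sequenced and the authors deposited 1 table with an estimated count (also called expected count) and an FPKM per gene and library. The estimated counts the authors deposited are whole numbers in steps of about 4, not reads counted singly; FPKM as deposited follow these counts divided by exon length and library total, up to 1 factor per library of 1.09 to 1.14 (within 5% of it for 99.2% or more of the genes with counts over 1000). The submitters' processing notes name Bowtie 0.12.2 and the builds mm8 and mm9, whereas the table's coordinates are GRCm38. Group membership came from the labels' disease state and treatment fields, although titles of the Control samples name HN as well, and the extraction note mentions an adipose type where the tissue field gives kidney.

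Differential expression was tested with edgeR 4.0.16 (glmQLFit, glmQLFTest) in R 4.3.3, with TMM, filterByExpr and 1 fit over 9 libraries. The design had assumed plain counts, and edgeR was kept on the estimated counts. p-values were adjusted by Benjamini-Hochberg over all 21392 genes tested. A gene was called at a fold of at least 1.5 and an adjusted p of at most 0.05. SE and intervals come from the same fit. limma 3.58.1, DESeq2 1.42.0, other filters and pseudocounts, library totals, a fold of 2, unadjusted p, fits of 2 groups, length offsets (spline, 5 df) and each library left out were alternatives. Removal of length and GC trends together, and counts divided by the size of a fragment, were chosen after seeing the data. Libraries of a group differed by more than sampling noise (chi-square per degree of freedom 18.8 to 67.3 over 9 pairs). Collagens given in each library were Col1a1, Col1a2, Col3a1, Col4a1 to Col4a6, Col6a1 to Col6a3, Col15a1, Col18a1, the member of each class with the highest mean FPKM, and the 5 largest rises and falls in HN against Control and in PEC against HN. Pathway genes named were the 4 of each list with the highest mean FPKM and those called in opposite directions in these comparisons. Pathway lists were collagen biosynthesis, receptor and fibril partner genes, and 11 lists held markers of kidney and other cell types. Members and lists were chosen with earlier results of these data known. Promoter sequences are from RefSeq (GRCm38.p6) and exons from GENCODE M21. The script was tested on simulated data. Figures were drawn with matplotlib 3.10.9 in Python 3.11.15.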

Additional observations from a re-analysis of the deposited data

How the results depend on the processing

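Counts of collagens called were recomputed under 13 other settings and with each of 9 libraries left out. Collagens higher in HN against Control (25) numbered 21 to 30 and 24 to 27. Those lower with PEC against HN (19) numbered 14 to 22 and 19 to 20, and those higher with PEC against Control (21) 15 to 25 and 19 to 20. The settings tested 25 to 42 collagens, so that these ranges do not cover the same set. Shares of all genes, leaving aside a fold of 2 and unadjusted p, were 11.3% to 38.1%, 10.1% to 27.4% and 11.3% to 30.2% in the same order. With a library left out they were 14.9% to 17.5%, 12.4% to 15% and 16.3% to 17.3%. The small counts moved. Collagens lower in HN mice (6) were 3 with library totals and 1 in each of the 3 limma fits. Of all genes 14.6% were lower in the main fit and 5.96% with library totals. In the limma fits with pseudocounts 1 and 0.1 and with no filter they were 6.6%, 7.68% and 3.07%. The limma fits tested 25 collagens, or 42 with no filter, where edgeR tested 41. Collagens higher with PEC against HN (3) were 1 without a filter on low counts, 1 in each limma fit, 1 with only the groups compared, and 1 to 3 with a library left out. Collagens lower with PEC against Control (5) were 2 with library totals, 3 with a mean count of at least 100 and 2 without the length trend. They were 2, 2 and 1 in the limma fits with pseudocounts 1 and 0.1 and with no filter. At a fold of at least 2 they were 2, where the share of all genes is not given. With a library left out they were 3 to 6. Without length and GC trends, an alternative chosen after seeing the data, there were 3. Shares of all genes higher with PEC against HN were 13.2% in the main fit, 7.59% without a filter and 14% with only the groups compared. With a library left out they were 10.4% to 12.8%. In the limma fits they were 8.74%, 10.9% and 4.34%. Those lower with PEC against Control were 17.3% in the main fit, 9.05% with library totals and 20% with a mean count of at least 100. They were 9.58%, 12.4% and 4.43% in the limma fits, 14.8% without the length trend and 14% without length and GC trends. With a library left out the share was 15.3% to 16.5%. The cause was not tested. No named collagen that was called changed direction in any setting. Dividing counts by the size of a fragment was also chosen after seeing the data. The study assigned mice to the groups at random and each library is from a different mouse, so that there were no pairs to analyse. Replicate numbers shared between groups (4 in Control and HN, 2 in Control and PEC) were not taken as pairs. Limits are 3 mice per group, estimated counts, and the library differences of the PEC group, which cannot be told apart from PEC. Depth limits the genes with few fragments, such as Col19a1, Col10a1 and Col17a1.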

Other observations

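Collagen genes that share a chromosomal neighbourhood did not all share a course. Col3a1 and Col5a2 lie tail to tail on chromosome 1, with 24614 bases between them, and their log2 fold changes in HN mice were 4.20 and 1.81. The FPKM ratio of Col5a2 to Col3a1 was 0.874 ± 0.0439 in Control, 0.167 ± 0.00696 in HN and 0.166 ± 0.0535 in PEC, with every Control library above every HN and PEC library. Col9a1 and Col19a1 are also tail to tail, with 9205 bases between them; the first was at 0 in all libraries and the second had fragments in Control. The ratio of Col8a1 to Col8a2, the chains of type VIII collagen, was 123, 137 and 219 (Control), 8.86, 5.91 and 7.03 (HN) and 3.42, 6.53 and 3.13 (PEC). It was above 120 in every Control library and below 10 in every HN and PEC library, where Control Col8a2 rests on about 6 fragments in all.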
